A study of Mus musculus with 12 samples.

Results

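The genes described here are 9 genes that mark the endothelial cells lining the blood vessels and sinusoids of the bone marrow: Kdr, Flt4, Tek, Tie1, Cdh5, Pecam1, Emcn, Stab2 and Eng. They were found by name in the deposited table, which lists 34745 genes, and all 9 had 1 row each and passed the filter on low counts in every comparison. The values come from RNA of femoral marrow cells of 12 male ICR mice, an outbred stock, with 3 mice in each of 4 groups. The mice of the normal group received saline only. Those of the model group received saline and, from day 5 to day 7, cyclophosphamide at 80 mg/kg per day by intraperitoneal injection, which made them leucopenic. The QJSB group had this same course of cyclophosphamide with, over 1 week, 3 g/kg per day of Qi-Jing-Sheng-Bai granule, a herbal formula. The leucogen group had it with 20 mg/kg per day of the drug of that name, which is prescribed against low leucocyte counts. The age of the mice was not stated. Libraries carry the names Blank, Model, Stilbene and Positive in the table. Blank, Stilbene and Positive were taken to be normal, QJSB and leucogen from what the words mean and by elimination, since the labels do not use these names.

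Marrow endothelium forms small arteries and a wide net of sinusoids, thin-walled and leaky vessels through which blood cells leave the marrow. Vascular endothelial growth factors act through the receptor tyrosine kinases encoded by Flt1, Kdr (VEGFR2) and Flt4 (VEGFR3), and angiopoietins act through Tek (TIE2), with Tie1 as a related receptor that modifies TIE2 signalling. Cdh5 encodes VE-cadherin, the adhesion molecule of endothelial junctions, and Pecam1 encodes CD31, which lies at the same junctions. Emcn encodes endomucin, a sialomucin of venous and sinusoidal endothelium, Stab2 encodes a scavenger receptor for hyaluronan of sinusoidal endothelium, and Eng encodes endoglin, a co-receptor of the TGF-beta and BMP pathway with ALK1. Chemotherapy and irradiation are known to damage sinusoids, which regrow through VEGFR2 signalling. Several of these genes are not restricted to endothelium: for example, Pecam1 is also found on platelets, megakaryocytes and myeloid cells, and Eng and Tek on hematopoietic stem cells. Whether the other members are restricted to endothelium cannot be told from these libraries.

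Library totals ran from 11172547 to 18545198 counts, and the 9 genes together held 964 to 2955 counts per library. Replicate libraries differed by more than counting error (chi-square divided by its degrees of freedom 10.3 to 105, where counting error alone gives about 1). By this measure QJSB 1 differed more from QJSB 2 and QJSB 3 (105 and 83.2) than these did from each other (28.9). Model 1 did not stand apart by it, with 55.8 and 47 for its pairs and 61.5 for model 2 and model 3. In sums of some cell type markers, model 1 and QJSB 1 stood apart from the others of their groups. Their late neutrophil markers summed to 4822 and 7396 CPM (counts scaled to a common library total by the TMM method), against 12090 to 38130 CPM in the other model and QJSB libraries, and their stromal markers to 976.5 and 1105 CPM against 341.6 to 460.8 CPM. Total marrow holds many cell types, and CPM values are shares of a library. Changes in the number of endothelial cells, in the RNA of each, or in the amount of other cells cannot be told apart in these values.

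In the coordinates of the deposited table (GRCm38), Tie1 lies at chr4:118471191-118490061, Tek at chr4:94739289-94874976, Kdr at chr5:75932827-75978458 and Flt4 at chr11:49609263-49652739. Cdh5 lies at chr8:104101625-104144502, Pecam1 at chr11:106654217-106750628, Emcn at chr3:137341067-137432185, Stab2 at chr10:86841198-87008025 and Eng at chr2:32646595-32682669. In the GENCODE M21 annotation, 8 of the 9 genes had the same start and end, and Cdh5 ended at 104144511. Exons of Stab2 overlap those of Gm16268 on the opposite strand, and exons of Eng overlap those of Fpgs on the opposite strand. The libraries kept the strand, but whether counting used it is not stated in the sources used here, so these reads may be shared between the genes. The other 7 genes overlapped no exon of another gene.

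Promoters of 7 of the 9 genes were matched by symbol in RefSeq (GRCm38.p6), each a window of 250 bases before to 50 bases after the transcript start. Those of Tie1, Stab2 and Flt4, which rose together in the model group, and of Eng, which did not, are printed on the coding strand with the core of the site for ETS factors, GGAA on either strand, in capitals. ETS factors are regulators of many endothelial genes. The windows are Tie1 at chr4:118489800-118490099 (minus strand), Stab2 at chr10:87007893-87008192 (minus strand), Flt4 at chr11:49609429-49609728 (plus strand) and Eng at chr2:32646345-32646644 (plus strand). Of the 300 bases, 300 of the Flt4, 262 of the Tie1 and 133 of the Stab2 window lie inside the gene as the deposited table places it, since RefSeq starts the transcript further downstream.
Tie1: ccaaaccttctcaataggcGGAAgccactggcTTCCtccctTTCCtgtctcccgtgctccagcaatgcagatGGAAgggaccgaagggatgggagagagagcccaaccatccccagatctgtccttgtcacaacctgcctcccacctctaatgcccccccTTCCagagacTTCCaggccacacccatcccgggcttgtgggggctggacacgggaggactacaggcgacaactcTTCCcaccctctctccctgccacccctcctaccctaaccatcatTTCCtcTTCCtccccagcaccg
Stab2: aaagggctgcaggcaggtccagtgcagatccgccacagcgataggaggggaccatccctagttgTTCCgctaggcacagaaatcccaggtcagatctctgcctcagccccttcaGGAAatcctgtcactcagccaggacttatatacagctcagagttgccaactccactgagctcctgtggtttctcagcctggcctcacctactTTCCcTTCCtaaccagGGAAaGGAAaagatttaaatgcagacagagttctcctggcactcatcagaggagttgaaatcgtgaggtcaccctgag
Flt4: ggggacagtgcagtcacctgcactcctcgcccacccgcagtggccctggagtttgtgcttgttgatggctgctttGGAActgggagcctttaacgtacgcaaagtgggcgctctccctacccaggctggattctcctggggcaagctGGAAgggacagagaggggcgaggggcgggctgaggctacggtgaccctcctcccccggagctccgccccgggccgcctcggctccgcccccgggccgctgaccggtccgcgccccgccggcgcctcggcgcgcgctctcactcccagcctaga
Eng: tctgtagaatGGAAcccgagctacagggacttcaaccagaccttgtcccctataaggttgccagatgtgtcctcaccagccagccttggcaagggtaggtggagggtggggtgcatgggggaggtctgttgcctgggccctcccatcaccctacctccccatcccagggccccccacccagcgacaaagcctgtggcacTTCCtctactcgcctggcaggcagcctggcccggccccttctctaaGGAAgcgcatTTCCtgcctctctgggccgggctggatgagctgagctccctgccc

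The Tie1 window held 9 such cores, Stab2 and Emcn 6 each, Kdr 5, Eng 4, and Flt4 and Tek 2 each, beside a median of 3 over 32851 promoters. All 7 windows held at least 1, as did 96% of all promoters. The longer letters CCGGAAG, which contain the core, were in none of the 7 and in 8.86% of all promoters. The SP1 or KLF letters GGGCGG were in Kdr and Flt4 and in 35.7% of all promoters, the GATA letters AGATAA were in Tek alone and in 11.2%, and TATAAA was in none of the 7 and in 13.6%. Each was searched on both strands.

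Per transcript length, as FPKM (fragments scaled to transcript length and library total), Pecam1 was far above the other 8 genes in every group, at 11.7 ± 0.88 in normal, 8.68 ± 1.19 in model, 8.07 ± 1.33 in QJSB and 6.29 ± 0.67 in leucogen (SD, n = 3 each). In normal, Eng came next at 1.65 ± 0.19, followed by Stab2 at 1.13 ± 0.12, Cdh5 at 0.955 ± 0.213, Tie1 at 0.756 ± 0.078, Kdr at 0.571 ± 0.080, Tek at 0.282 ± 0.045, Emcn at 0.280 ± 0.076 and Flt4 at 0.225 ± 0.048. Stab2 and Cdh5, Cdh5 and Tie1, and the last 3 genes overlapped with their neighbours in this order, while the others were apart from theirs in the 3 libraries. After cyclophosphamide the order below Pecam1 changed. In model it ran Stab2 at 2.27 ± 0.68, Cdh5 at 1.82 ± 0.27, Tie1 at 1.73 ± 0.47 and Eng at 1.38 ± 0.59, and each overlapped with the next. Flt4, the lowest of the 9 in normal and leucogen, was the seventh in model at 0.495 ± 0.149 and in QJSB at 0.685 ± 0.068. In QJSB the Flt4 values were apart from those of Kdr above and Tek below. By FPKM, the members ranked from the 56.7th percentile of all 34745 genes, for Flt4 in normal, to the 89.3rd, for Pecam1 in normal. Of these genes 11677 had no counts in any library, which raises the percentiles.

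**Figure D1:**
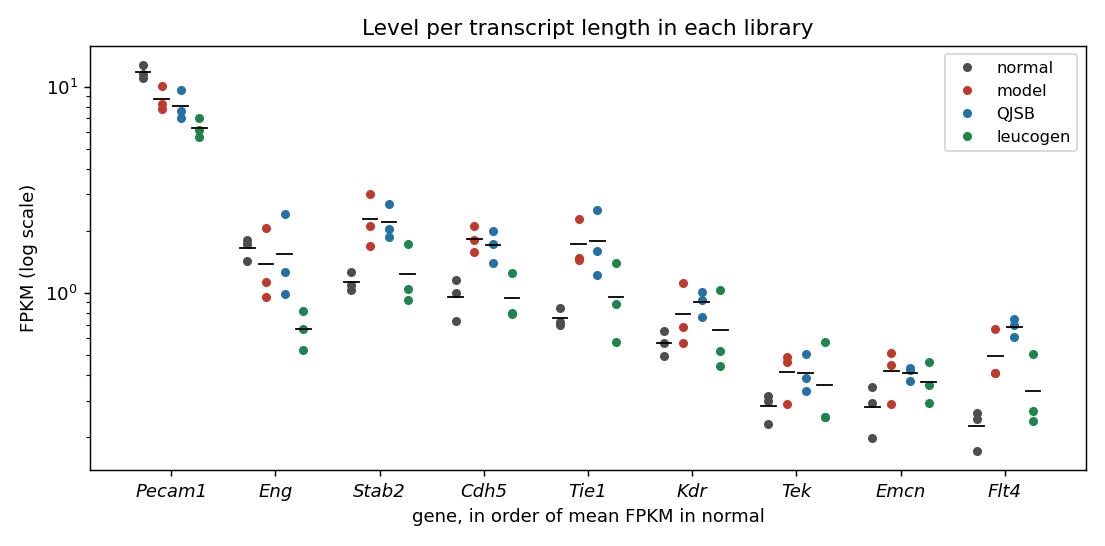
FPKM (log scale) of the 9 genes in each of 12 libraries, ordered by the mean in normal; points are libraries, coloured by group, and black bars are the means of 3. Pecam1 sits above the other 8 genes in every library, and Eng, second in normal at 1.65, falls among the others in the 3 groups given cyclophosphamide.

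Summed without Pecam1, the FPKM of the other 8 genes was 5.74, 5.78 and 6.02 in normal, 12.2, 7.86 and 7.91 in model, 11.5, 7.87 and 9.54 in QJSB and 7.76, 4.65 and 4.18 in leucogen, each in the order of replicates 1, 2 and 3. All 6 libraries of model and QJSB were above the 3 of normal, and those of leucogen lay on both sides of them. Model 1 and QJSB 1 had the highest sums of their groups, and leucogen 1 the highest of its group.

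Model against normal asks what cyclophosphamide did to the marrow. Of the 9 endothelial genes, 4 rose in the model group: the receptors Tie1 (2.08-fold) and Flt4 (2.01-fold), the sinusoidal scavenger receptor Stab2 (1.83-fold) and the junction gene Cdh5 (1.75-fold). None fell past the cutoff, although Pecam1 was lower in all 3 model libraries than in any normal one. Kdr, Tek, Emcn and Eng did not pass the test. A gene was called when it differed by over 1.5-fold in either direction with a Benjamini-Hochberg adjusted p under 0.05 in edgeR. By this rule 16.1% of the 14752 genes tested were called higher and 19.0% lower, against 4 and 0 of the 9 members. The median log2 fold change of the 9 was 0.43, beside 0.02 over all genes. Erythroid and B lineage markers fell strongly in model, and the part of this loss in the rise of the 4 genes was not tested.

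Among the receptors, Tie1 was at 4.48, 5.19 and 4.23 CPM in normal and 12.2, 8.21 and 8.75 CPM in model. Every model library was above every normal one, and the log2 fold change was 1.06 ± 0.23 (SE, edgeR adjusted p = 0.00647). Flt4, the receptor for VEGF-C and VEGF-D, was at 2.17, 1.50 and 2.25 CPM in normal and 5.14, 3.33 and 3.50 CPM in model, with no overlap (log2 fold change 1.01 ± 0.31, edgeR adjusted p = 0.0295). It rests on 22 to 33 counts per normal library. Kdr was at 4.84, 5.59 and 6.27 CPM in normal and 9.59, 5.17 and 6.48 CPM in model, so the groups overlapped (0.34 ± 0.27, edgeR adjusted p = 0.344). Tek ranged from 1.77 to 2.39 CPM in normal and from 2.05 to 3.44 CPM in model (0.43 ± 0.31, edgeR adjusted p = 0.293). Of the 4 receptors, 2 thus rose, and Kdr and Tek had estimates above 0 that did not pass the test.

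At the junctions, Cdh5 was at 4.05, 2.93 and 4.57 CPM in normal and 7.45, 5.87 and 7.06 CPM in model. The groups did not overlap, and the log2 fold change was 0.81 ± 0.24 (edgeR adjusted p = 0.0281). Pecam1 was lower, at 101, 104 and 114 CPM in normal and 79.9, 65.3 and 73.2 CPM in model. Its log2 fold change of -0.55 ± 0.13 had an edgeR adjusted p of 0.00829 but was smaller than the fold change the cutoff asks for. Cdh5 and Pecam1, which both encode proteins of endothelial junctions, thus had fold changes of opposite sign.

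Of the sinusoidal genes, Stab2 was at 13.1, 11.3 and 10.5 CPM in normal and 27.3, 20.2 and 16.9 CPM in model, with every model library above every normal one (log2 fold change 0.87 ± 0.21, edgeR adjusted p = 0.0118). Emcn, with 19 to 34 counts per normal library, ranged from 1.30 to 2.32 CPM in normal and from 1.87 to 3.11 CPM in model (0.43 ± 0.35, edgeR adjusted p = 0.350). Eng was at 10.7, 13.3 and 12.5 CPM in normal and 13.3, 6.58 and 8.17 CPM in model. The library model 1 was as high as the highest normal library and the other 2 were below all normal ones (-0.39 ± 0.27, edgeR adjusted p = 0.281). In all, 4 members were higher in every model library than in any normal one, as were 27.5% of all genes tested.

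**Figure D2:**
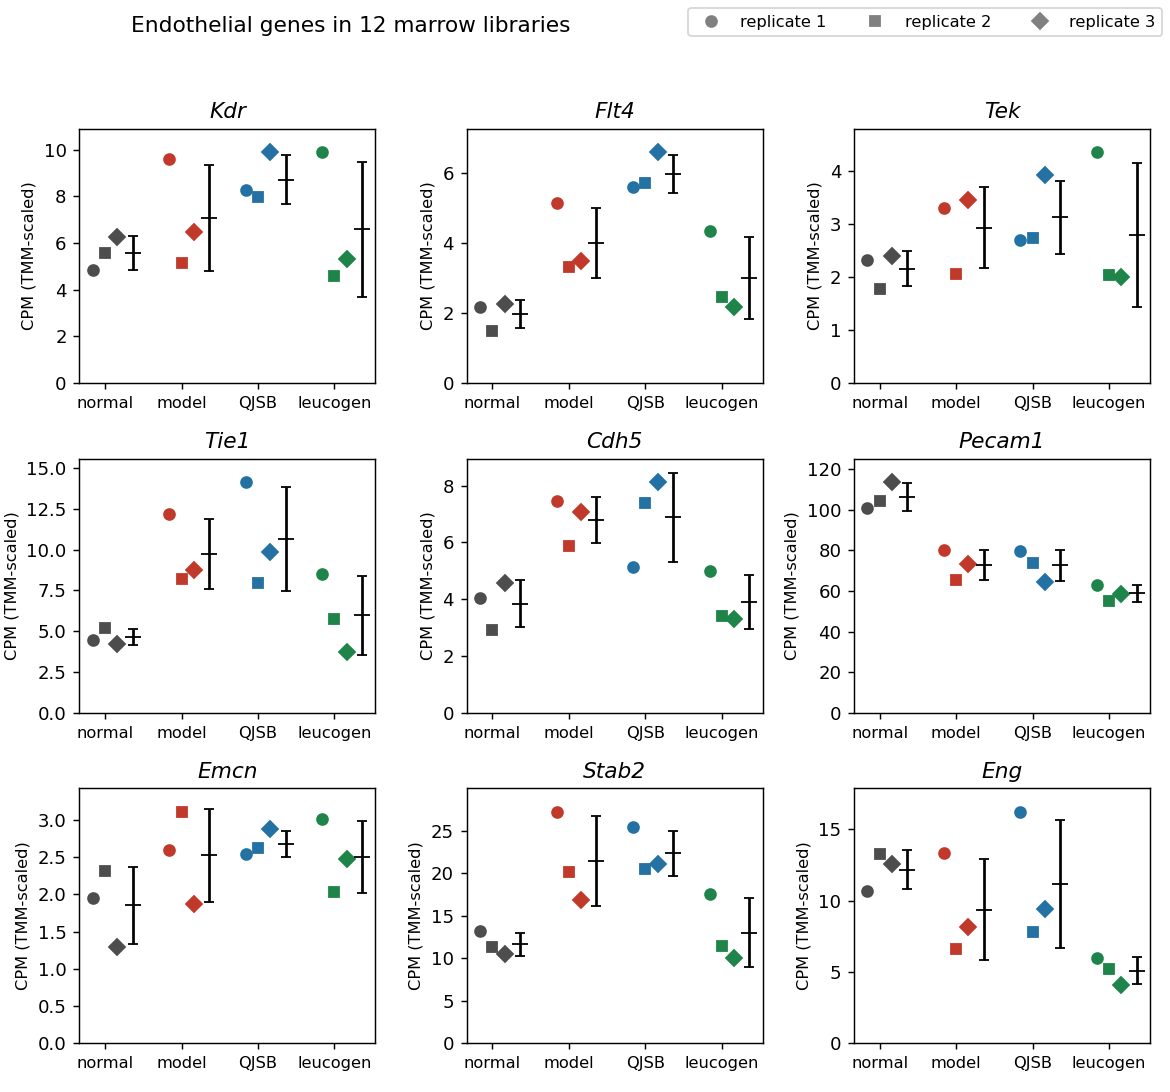
CPM (TMM-scaled) of each of the 9 genes in the 12 libraries; each panel is a gene with its own axis starting at 0, symbols mark replicates 1 to 3, and black bars give the mean ± SD of 3. Tie1, Flt4, Cdh5 and Stab2 are higher in all 3 model libraries than in any normal one, and Pecam1 is lower.

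Tie1 was called under all 6 fits that left out 1 library. Stab2 was past the cutoff in 5 of 6 and had a log2 fold change of 0.82 without normal 3 (adjusted p = 0.0513). Flt4 was called in 2 of 6 and not without normal 1 (1.08, adjusted p = 0.0720), normal 2 (0.84, 0.116), normal 3 (1.12, 0.0599) or model 1 (0.79, 0.0776). Cdh5 was likewise called in 2 of 6 and not without normal 1 (0.85, adjusted p = 0.0749), normal 2 (0.65, 0.113), model 1 (0.75, 0.0602) or model 3 (0.79, 0.0533). Without model 1, Eng (-0.72, adjusted p = 0.0290) and Pecam1 (-0.62, 0.00878) both passed the cutoff as lower, and Pecam1 also without normal 1 (-0.59, 0.0282). Over all 15 alternatives run, the adjusted p ran from 0.00128 to 0.0325 for Tie1, from 0.00253 to 0.0513 for Stab2, from 0.0211 to 0.116 for Flt4, from 0.0179 to 0.113 for Cdh5, from 0.0290 to 0.603 for Eng and from 0.00201 to 0.0487 for Pecam1. On log2(FPKM + 0.1), tested with limma, Flt4 was at 0.86 (adjusted p = 0.0538). The p-values of the fits with a library left out are from edgeR.

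QJSB against model asks whether the granule changed what cyclophosphamide did, and the same model libraries serve as controls for leucogen. None of the 9 genes was called. By edgeR 0% of the 14486 genes tested passed the adjusted cutoff. Of the 9 members 0 had an unadjusted p under 0.05, beside 4.99% of all genes. DESeq2 called 0 members and 8 of 21744 genes (0.0368%). At the cutoff of the study's methods, the same fold change with an unadjusted P under 0.05, 3.08% of all genes passed and 0 of the members. The median log2 fold change of the 9 was 0.07, beside -0.02 over all genes. With the replicate number as a block, which treats libraries of equal number as pairs, 0 members were called as well, beside 18 of 14486 genes.

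Flt4 had the highest estimate. It was at 5.62, 5.71 and 6.61 CPM in QJSB, above the 3.33 to 5.14 CPM of model in every library (log2 fold change 0.56 ± 0.29, edgeR adjusted p = 0.767). Of all genes, 4.44% were higher in every QJSB library than in any model one, and of the members 1 was. Kdr was at 8.26, 7.99 and 9.91 CPM in QJSB (0.28 ± 0.29), Tie1 at 14.1, 7.93 and 9.85 CPM (0.11 ± 0.29) and Tek at 2.70 to 3.92 CPM (0.07 ± 0.34). Cdh5 was at 5.13, 7.40 and 8.14 CPM (0.00 ± 0.27) and Pecam1 at 79.5, 73.9 and 64.6 CPM (-0.02 ± 0.16). These values overlapped with those of model for each of the 8 genes other than Flt4. Stab2 was at 25.4, 20.5 and 21.1 CPM (0.04 ± 0.22), Emcn at 2.54 to 2.88 CPM (0.07 ± 0.33) and Eng at 16.3, 7.81 and 9.42 CPM (0.23 ± 0.36). Eng and Tie1 were highest of all 12 libraries in QJSB 1, and Kdr, Cdh5 and Flt4 in QJSB 3. The standard errors of the 9 estimates ran from 0.16 to 0.36 on the log2 scale. With model 1 and QJSB 1 both left out, a choice made after seeing the data, 0 members passed the adjusted cutoff and 1 passed that of the study's methods, beside 23 and 1330 of 14399 genes (0.16% and 9.24%).

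Leucogen against model shares its model libraries with the previous comparison. At the adjusted cutoff none of the 9 was called, but 3 passed that of the study's methods, all of them lower with leucogen: Eng (0.55-fold), Cdh5 (0.58-fold) and Stab2 (0.61-fold). Lower calls made up 11.5% of the 14184 genes tested at the adjusted cutoff and 15.6% at the other. By edgeR 3 members had an unadjusted p under 0.05, as did 41.1% of all genes, and DESeq2 called 1 member and 16.7% of all genes. The median log2 fold change of the 9 was -0.39, beside -0.05 over all genes, and 1 of 9 estimates was above 0.

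Eng was at 5.94, 5.22 and 4.08 CPM in leucogen, below the 6.58 to 13.3 CPM of model in every library (log2 fold change -0.86 ± 0.30, edgeR adjusted p = 0.0617). Cdh5 was at 4.99, 3.41 and 3.32 CPM, also below every model library (-0.78 ± 0.26, edgeR adjusted p = 0.0529). Stab2 was at 17.6, 11.4 and 9.97 CPM, where leucogen 1 overlapped with model (-0.71 ± 0.26, edgeR adjusted p = 0.0737). Pecam1, at 63.0, 54.8 and 58.5 CPM, was below every model library with a smaller difference (-0.29 ± 0.14, edgeR adjusted p = 0.149). So 3 members, Eng, Cdh5 and Pecam1, were lower in every leucogen library than in any model one, as were 24.1% of all genes. Tie1 was at 8.48, 5.73 and 3.70 CPM (-0.68 ± 0.31, edgeR adjusted p = 0.131) and Flt4 at 4.36, 2.47 and 2.18 CPM (-0.39 ± 0.35). Both overlapped with model only through leucogen 1. Kdr at 9.90, 4.57 and 5.32 CPM (-0.09 ± 0.35), Tek at 1.99 to 4.36 CPM (-0.05 ± 0.39) and Emcn at 2.03 to 3.01 CPM (0.00 ± 0.33) had estimates close to 0. Leucogen 1 was the highest library of its group for all 9 genes.

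The leucogen calls depended on the scaling and the fit. With total counts in place of TMM, Cdh5 (-0.95, edgeR adjusted p = 0.0330) and Eng (-1.04, 0.0414) passed the adjusted cutoff. The same change moved the median of all genes by -0.17 on the log2 scale and the higher calls from 1640 of 3275 to 1150 of 3805. Among the other alternatives, Cdh5 also passed with at least 10 counts in every library, with all 12 libraries in one fit and on log2(FPKM + 0.1). Eng passed without a filter, in DESeq2 and without model 2 (-1.02, edgeR adjusted p = 0.0325). Stab2 passed with all 12 libraries in one fit, with the replicate block (-0.72, edgeR adjusted p = 0.0377) and without leucogen 1 (-0.98, edgeR adjusted p = 0.0495). Over the 15 alternatives the adjusted p ran from 0.0330 to 0.178 for Cdh5, from 0.0325 to 0.227 for Eng and from 0.0369 to 0.251 for Stab2. At the cutoff of the study's methods the 3 members became 1 without model 1 or leucogen 2 and 0 without leucogen 3. Late neutrophil markers summed to 49120 to 58290 CPM in leucogen and 4822 to 19920 CPM in model. CPM values are shares of a library, and the part that this difference has in the values of the endothelial genes was not tested.

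**Figure D3:**
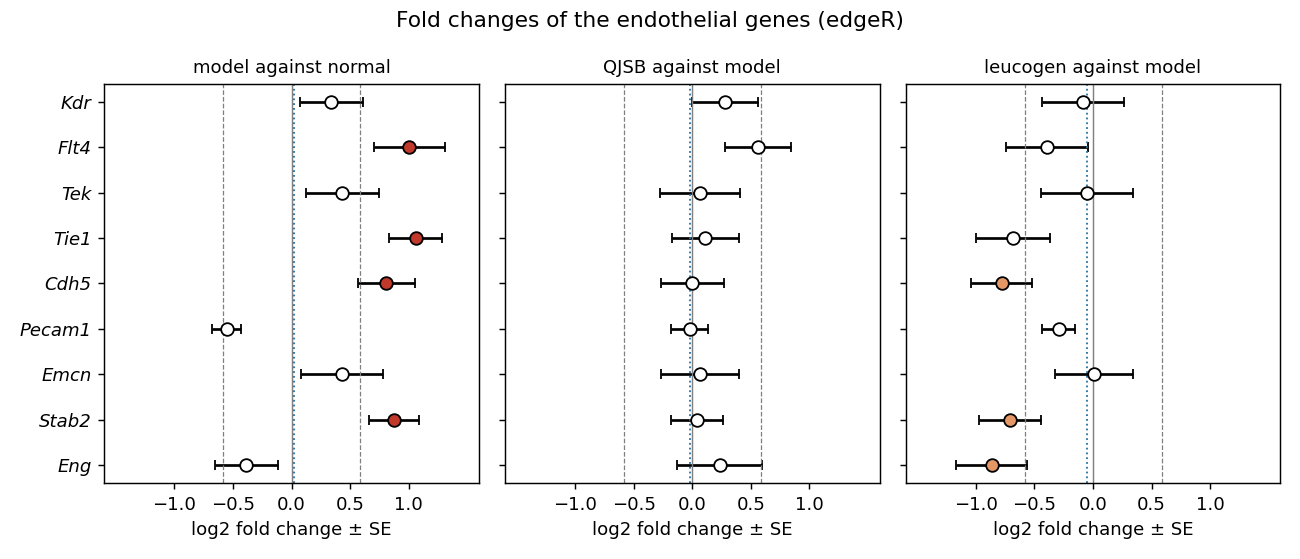
Log2 fold change ± SE of the 9 genes in 3 comparisons (edgeR); red points pass the adjusted cutoff, orange points only that of the study's methods, and white points neither. Dashed lines mark 1.5-fold in either direction and the dotted line the median of all genes; the 4 red points are all in model against normal, and the 3 orange points all in leucogen against model.

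Set beside the normal libraries, which also serve in the first comparison, QJSB had 5 of the 9 genes higher: Flt4 (3.01-fold), Tie1 (2.29-fold), Stab2 (1.92-fold), Cdh5 (1.78-fold) and Kdr (1.56-fold). Higher calls made up 18.0% of the 14817 genes tested. Flt4 had a log2 fold change of 1.59 ± 0.26 (edgeR adjusted p = 0.00199), Tie1 of 1.20 ± 0.26 (0.00773), Stab2 of 0.94 ± 0.16 (0.00304), Cdh5 of 0.83 ± 0.27 (0.0388) and Kdr of 0.64 ± 0.20 (0.0332). Flt4, Tie1 and Stab2 held under each of the 6 fits with a library left out, Cdh5 in 1 of 6 and Kdr in 2 of 6. Cdh5 was lost without any normal library (0.86, 0.67 and 0.97 without normal 1, 2 and 3), without QJSB 2 (0.78) and without QJSB 3 (0.70). Kdr was lost without any normal library (0.54, 0.64 and 0.73) and without QJSB 3 (0.54), and in 9 of all 15 alternatives run, among them those without a filter (adjusted p = 0.0545), with all 12 libraries in one fit (0.110) and on log2(FPKM + 0.1) (0.0856). Including Tek and Emcn, 7 of the 9 genes were higher in every QJSB library than in any normal one, as were 29.1% of all genes. Pecam1 was lower in every QJSB library (-0.55 ± 0.12, edgeR adjusted p = 0.00796), again short of the fold cutoff, which it passed without normal 1 (-0.60) or QJSB 1 (-0.63).

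Leucogen had 2 of the 9 genes lower than normal and none higher. Eng fell to 0.42-fold (log2 fold change -1.24 ± 0.19, edgeR adjusted p = 0.000394) and Pecam1 to 0.56-fold (-0.84 ± 0.10, edgeR adjusted p = 7e-05), where 19.8% of the 14637 genes tested were called lower. Both were called in each of the 6 fits that left out a library. The other 7 had estimates from 0.04 for Cdh5 to 0.63 for Flt4, none past the test.

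QJSB against leucogen compares the drugs with each other, with no library shared between the groups. Every estimate of the 9 genes was above 0, with a median of 0.75 beside 0.03 over all genes, and 2 passed the adjusted cutoff: Eng (2.14-fold, 1.10 ± 0.31, edgeR adjusted p = 0.0299) and Stab2 (1.68-fold, 0.75 ± 0.23, edgeR adjusted p = 0.0421). Higher calls made up 12.9% of the 14266 genes tested. At the cutoff of the study's methods, which 15.8% of all genes passed as higher, Flt4 (0.95 ± 0.31), Tie1 (0.80 ± 0.34) and Cdh5 (0.78 ± 0.29) joined them, with edgeR adjusted p of 0.0503, 0.106 and 0.0719. Eng, Stab2, Flt4, Cdh5 and Pecam1 were higher in every QJSB library than in any leucogen one, as were 26.3% of all genes. Kdr (0.37 ± 0.31), Tek (0.12 ± 0.39) and Emcn (0.06 ± 0.30) did not pass either test. Eng was lost without any one leucogen library (log2 fold change 1.22, 1.11 and 0.98 without leucogen 1, 2 and 3), and Stab2 without leucogen 2 (0.65), leucogen 3 (0.60) or any one QJSB library (0.64, 0.83 and 0.78). Flt4 passed without leucogen 1 (1.32) or QJSB 1 (0.99), and Cdh5 without QJSB 1 (0.95).

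The 9 genes did not share a single pattern over the 12 libraries. The likeness of a pair was measured as the root mean square difference of their log2 CPM values after each gene was centred on its own mean, as a description without a test. Stab2 and Tie1 were the most alike at 0.20, followed by Kdr and Tek at 0.21, Cdh5 and Stab2 at 0.30 and Stab2 and Flt4 at 0.31. Eng and Pecam1 were at 0.39 from each other, and each was nearest to the other among the members. Flt4 and Pecam1 were the least alike at 0.81. Low counts add scatter to these distances, which all share the same libraries.

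Among all 15309 other genes compared, the nearest to Tie1 and to Kdr was a member, Stab2 and Tek respectively. For Tek, Kdr was the second nearest, for Stab2, Tie1 was the fifth, and for Flt4, Stab2 was the thirteenth. Outside the members, the nearest named genes were Ptpmt1 for Tie1 (0.22), Rab13 for Kdr (0.23), Zfp771 for Tek (0.18), Adgrg5 for Stab2 (0.18), Inf2 for Flt4 (0.24), Tmem101 for Cdh5 (0.18), Bloc1s5 for Eng (0.17) and Tsc1 for Pecam1 (0.09). Gene models without a name (Gm or Rik) were passed over in this choice but not in the ranks. The nearest member of Cdh5 ranked 168th, that of Eng 375th, that of Emcn 2742nd and that of Pecam1 3009th, so many genes of the table lay closer to these 4 than any other member did.

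The partners of these receptors were then read from lists chosen for this purpose, in model against normal unless another comparison is named. Of all genes tested there, 16.1% were called higher and 19.0% lower. Of the VEGF and angiopoietin ligands, 5 of 9 could be tested, and 1 rose and 1 fell. Vegfa, the main ligand of VEGFR2, rose (log2 fold change 1.24, edgeR adjusted p = 0.00783), and Figf, which encodes VEGF-D, a ligand of VEGFR3, fell (-2.40, 0.00351). Vegfa was higher again in leucogen than in model (0.83, 0.0397). Of the 4 co-receptors and phosphatases, Flt1 (2.03, 0.000327), which encodes VEGFR1, and Ptprb (1.12, 0.00656), the phosphatase of TIE2 and VE-cadherin, rose, and Nrp1 and Nrp2 did not pass. None of these 4 was called between either drug and model, where 0% of all genes were called with QJSB and 23.1% with leucogen. Of the 12 genes tested of the ALK1 and endoglin pathway, 2 rose and 3 fell, near the shares of all genes. Smad1 rose (1.34, 0.000631), Id3 (-2.67, 0.00301), Tgfbr2 (-1.32, 0.000162) and Acvrl1 (-1.30, 0.00273), which encodes ALK1, fell, and the ligand genes Gdf2 and Bmp10 had no counts in any group. Acvrl1 was higher in leucogen than in model (3.06, 0.000946) and than in normal (1.77, 0.000329), while Eng, its partner, was lower than in normal.

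Of 22 other pan-endothelial genes tested, 5 rose and 1 fell, with a median log2 fold change of 0.53, where 16.1% of all genes rose and 19.0% fell. The risers were Mcam (3.03, edgeR adjusted p = 0.00480), Flt1, Arhgef15 (1.46, 0.0408), Ptprb and Egfl7 (1.07, 0.00499), and S1pr1 fell (-3.08, 1.7e-05). S1pr1, the sphingosine 1-phosphate receptor, is also a gene of lymphocytes. Of the 7 other sinusoidal genes tested, Stab1 (1.31, 0.00251), the close relative of Stab2 and also a macrophage gene, Il6st (1.18, 0.00456) and Adamts5 (1.01, 0.0364) rose, and Lyve1 (-1.46, 0.0129) and Mrc1 (-1.17, 0.00260), which macrophages also express, fell. In leucogen against model, Stab1 fell (-1.04, 0.0168), Cd93 fell (-0.78, 0.00802), and Aplnr (1.69, 0.00531) and Calcrl (1.47, 0.00389) rose. Between QJSB and model, 0 of the 26 pan-endothelial and 0 of the 8 sinusoidal genes tested were called, as were 0% of all genes.

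Genes that mark other vessel types or control the endothelial program changed in both directions, as did all genes (16.1% called higher and 19.0% lower). Of 10 arterial genes tested, 2 rose, Ly6a (1.09, edgeR adjusted p = 0.0371) and Ly6c1 (0.96, 0.0331), both also genes of blood cells, and 3 fell, with Sema3g lowest (-1.35, 0.0263). In leucogen against model, where 11.6% of all genes were called higher, 3 of 11 rose, Sema3g (1.51, 0.0343), Bmx (1.42, 0.00547) and Jag1 (1.30, 0.0128). Bmx had a mean of 69.0 CPM in normal, where the arterial genes Gja4, Gja5, Dll4, Hey1 and Sox17 had means of at most 0.28 CPM. Which cells gave the Bmx values cannot be told from these libraries. Of the 3 lymphatic genes tested, Reln (-6.59, 5.9e-06) and Lyve1 fell. Reln had a mean of 91.1 CPM in normal. The lymphatic genes Prox1, Pdpn and Ccl21a, too low to be tested, had means of 0.32, 0.56 and 0 CPM there. The cells behind the Reln values cannot be told from these libraries. Of 11 transcription factors, 2 rose, Klf4 (1.28, 0.00224) and Erg (0.78, 0.00229), an ETS factor of endothelium, and 3 fell, Tal1 (-3.70, 0.000322), Klf2 (-2.10, 5.3e-05) and Ets1 (-1.72, 4.2e-05), of which Tal1 is a major factor of erythroid cells and Ets1 of lymphocytes. In leucogen against model, 3 of 11 factors rose, among them Ets1 (1.67, 0.0103) and Erg (0.75, 0.00920), and 1 fell, Klf4 (-0.69, 0.0397). Of all genes tested there, 11.6% were called higher and 11.5% lower. Of the adhesion molecules induced by cytokines, Icam1 rose (0.64, 0.0367) and Sele fell (-1.75, 0.0133) among 4 tested. Among 11 partners of VE-cadherin and PECAM1, 3 rose and 2 fell, the risers with F11r (1.36, 0.0131) and Ctnnd1 (1.34, 0.000445), which encodes p120-catenin, and the falling ones with Cd99l2 (-1.22, 0.00423).

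**Figure D4:**
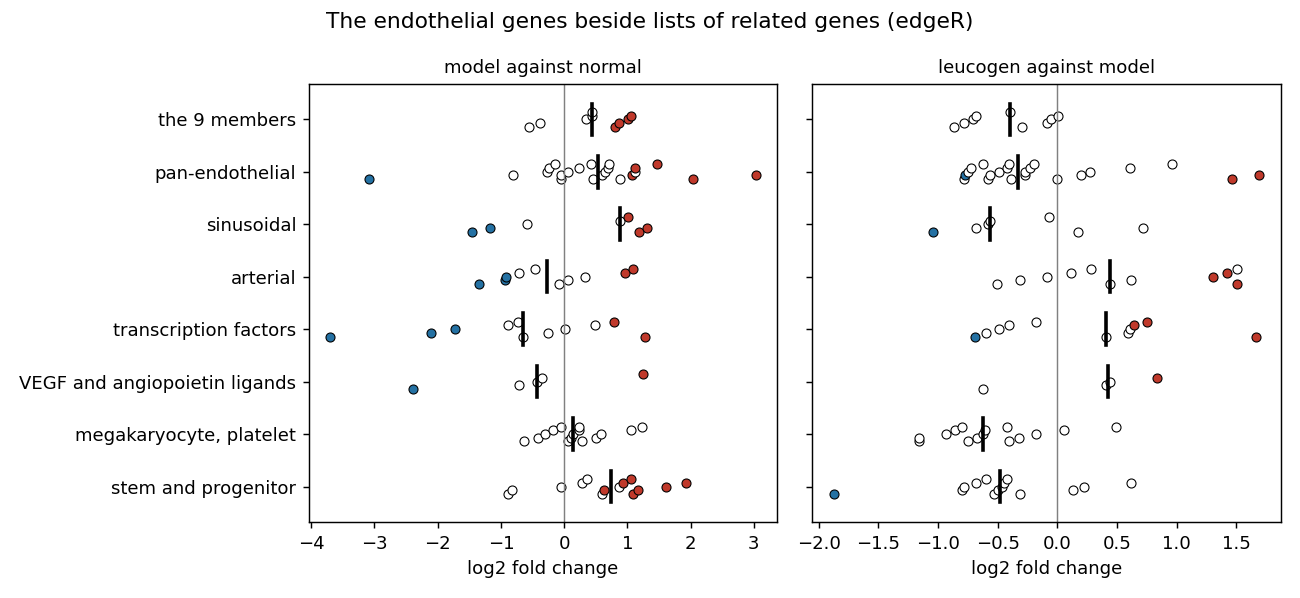
Log2 fold change of each gene tested in the endothelial and related lists, in model against normal and in leucogen against model (edgeR); red points are called higher, blue points lower, white points neither, black bars are list medians, and the vertical scatter within a row has no meaning. The members and the pan-endothelial, sinusoidal, megakaryocyte and stem cell lists have medians above 0 in model against normal, and below 0 in leucogen against model, as do lists not drawn here (adhesion molecules 0.03 and -0.60, stromal markers 0.22 and -0.20, monocyte markers 0.83 and -0.48).

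Cells that share some of these genes were measured in the same libraries. The counts of calls here are for model against normal, where 16.1% of all genes were called higher and 19.0% lower. Of 15 megakaryocyte and platelet markers, 0 were called in model against normal (median 0.14), and their summed level ran from 403.3 to 911.3 CPM in normal and from 430.1 to 1086 CPM in model. Of 14 stem and progenitor markers, 7 rose and 0 fell (median 0.74), with Flt3 (1.92, edgeR adjusted p = 0.00258), Hoxa9 (1.61, 0.000562) and Mecom (1.17, 0.0339) as the highest. Their sum ran from 195.4 to 230.5 CPM in normal and from 301.3 to 495.0 CPM in model. It ran from 304.3 to 482.2 CPM in QJSB and from 208.9 to 231.0 CPM in leucogen. By group it was higher in model and QJSB than in normal, as was the FPKM sum of the endothelial genes without Pecam1. Both sums were lower in every leucogen library than in any model or QJSB library. In model and in QJSB, replicate 1 was the highest in both sums, while the order of replicates 2 and 3 differed between them. Within leucogen the 2 sums differed, at 228.4, 231.0 and 208.9 CPM beside 7.76, 4.65 and 4.18 FPKM in replicates 1, 2 and 3. The part of these marker genes' cells in the values of the endothelial genes was not tested. The summed erythroid markers went from 17960 to 21640 CPM in normal to 346.1 to 2122 CPM in model and the B lineage markers from 1993 to 2155 CPM to 16.6 to 171.7 CPM, and 12 of 12 and 11 of 12 of them fell. Macrophage markers fell in 7 of 13 cases and rose in 2, and monocyte markers rose in 6 of 10 and fell in 1. Stromal markers rose in 2 of 13, Ebf3 (1.08, 0.0145) and Pdgfrb (0.95, 0.0271), and fell in 0.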

How the data were processed

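Femoral marrow RNA of 12 mice, 3 per group, was depleted of ribosomal RNA and sequenced. Reads were cleaned with Seqtk by the authors and aligned by Hisat2 (also named in the submitters' processing notes) to GRCm38.p4 (mm10), and the counting program is not given in the sources used here. The deposited table holds raw counts per gene and library without normalization, and the authors' FPKM, computed from fragments, transcript length and total fragments. All 24 value columns were used and 0 left out.

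Counts were tested with edgeR 4.0.16 (TMM, filterByExpr, robust quasi-likelihood fits, R 4.3.3), 2 groups at a time in 6 comparisons, with Benjamini-Hochberg adjustment over all genes tested. The calls were a change over 1.5-fold in either direction with adjusted p under 0.05, or, as in the study's methods, with unadjusted P under 0.05. Standard errors were derived from the F statistic. CPM used TMM factors of all 12 libraries. Groups of 3 were compared as separate mice, and depth covers counting error only. The tests were checked on simulated counts with few changed genes and the same relative spread for every gene. That check does not cover the larger share of changed genes or the uneven spread between replicates seen here. The members, the 18 lists (201 genes) and the tests were chosen with earlier results of these data known. Genes named from a list are its called genes with the largest change, up to 3 per comparison, and otherwise its most abundant genes, with others, among them Klf4, Erg, Acvrl1 and genes of the pan-endothelial and sinusoidal lists, named after their values were seen. The gene nearest to Emcn is not reported here.

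The labels give no pairing of libraries by replicate number. Same-numbered libraries of QJSB and model deviated together, mainly those numbered 1 (correlations 0.426, 0.122 and 0.107 over 15310 genes), as seen from these values alone. In QJSB against leucogen the correlations were 0.181, 0.134 and 0.0779. In each of the remaining comparisons at least 1 correlation was negative. Whether equal numbers mark pairs is not known. The alternatives were DESeq2 1.42.0, DESeq2 size factors, total counts, no filter, at least 10 counts in every library, one fit of all 12 libraries, the replicate block, limma-trend (limma 3.58.1) on log2(FPKM + 0.1) or log2(FPKM + 1) where the mean FPKM reached 0.1, and leaving out each library in turn.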

Additional observations from a re-analysis of the deposited data

How the results depend on the processing

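Of 819 alternative values of the 54 log2 fold changes (9 genes, 6 comparisons), 698 kept their direction and side of the cutoff, 43 lost the call, 24 gained it and 54 changed sign. Every change of sign was in a value that was not called. Model against normal had 4 genes called and 4 past the cutoff of the study's methods, with log2(FPKM + 1) 2 and 2, and with a library left out 2 to 4 and 4 to 6. QJSB against model had 0 and 0, with 0 to 0 and 0 to 1 with a library left out and 1 at the second cutoff without model 1 and QJSB 1. Leucogen against model had 0 and 3. The 0 became 2 with total counts or all 12 libraries in one fit, 1 without a filter, with at least 10 counts, DESeq2, the replicate block or log2(FPKM + 0.1), and 0 to 1 with a library left out, and the 3 became 0 with log2(FPKM + 1) and 0 to 4 with a library left out. QJSB against normal had 5 and 5, with the replicate block 3, with log2(FPKM + 1) 1 and 1, and with a library left out 3 to 6 and 3 to 6. Leucogen against normal had 2 and 2, and 2 to 2 and 2 to 3. QJSB against leucogen had 2 and 5. The 2 became 1 with total counts, 3 with DESeq2, at least 10 counts or the replicate block, 4 with all 12 libraries, 0 with log2(FPKM + 0.1) and 0 with log2(FPKM + 1), and 0 to 3 with a library left out, and the 5 became 0 with log2(FPKM + 1) and 2 to 6. On log2(FPKM + 1) low genes have small fold changes by construction, and the cause of the other changes was not tested. Whether equal replicate numbers mark pairs is not known in any comparison. The replicate block took QJSB against leucogen from 2 to 3 (Tie1 gained, edgeR adjusted p = 0.0438). It gave Stab2 in leucogen against model (-0.72, adjusted p = 0.0377), lost Cdh5 (0.0648) and Kdr (0.0642) in QJSB against normal, and left the other 3 counts as they were. With total counts in place of TMM, the median of all genes in model against normal moved by 0.12 and the higher calls went from 2368 of 5171 to 3024 of 5370.

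Signs that changed were, in QJSB against model, those of Cdh5 (0.0115 with DESeq2 size factors, 0.000968 without a filter, 0.0144 in DESeq2, 0.0142 with all 12 libraries, 0.23 without model 1 and QJSB 1, -0.14 to 0.17 with a library left out), Emcn (-0.0247 with total counts, -0.00527 on log2(FPKM + 1), -0.12 to 0.24), Stab2 (-0.0461 with total counts, -0.0222 on log2(FPKM + 0.1), -0.0203 on log2(FPKM + 1), -0.11 to 0.25), Tek (-0.0204, -0.003 and -0.0036 in the same settings, -0.12 to 0.20), Eng (-0.14 to 0.58), Pecam1 (-0.0918 to 0.0586) and Tie1 (-0.15 to 0.31). In leucogen against model they were those of Emcn (-0.17 with total counts, -0.0162 without a filter, -0.00133 with all 12 libraries, -0.12 on log2(FPKM + 0.1), -0.0462 on log2(FPKM + 1), -0.15 to 0.22), Kdr (-0.50 to 0.21) and Tek (-0.52 to 0.15). In leucogen against normal they were those of Cdh5 (-0.0144 with total counts, -0.00113 with at least 10 counts, -0.0209 on log2(FPKM + 0.1), -0.00962 on log2(FPKM + 1), -0.18 to 0.19), Kdr (-0.16 to 0.46), Stab2 (-0.11 to 0.32) and Tek (-0.0847 to 0.58). The others were Eng in QJSB against normal (-0.51 to 0.0802) and, in QJSB against leucogen, Emcn (-0.0766 to 0.22) and Tek (-0.0875 to 0.59). Emcn and Tek held at most 47 and 64 counts in any library, which limits the precision of their fold changes.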
